A study of Bos taurus with 18 samples.

Results

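The 50 genes described here encode the proteins that mark, open and copy chromosomal DNA in S phase, from the origin recognition complex to the ligase that seals the new strands. They were chosen by symbol: every MCM, ORC, GINS, RFC, RPA and PRIM gene, the DNA polymerase alpha, delta and epsilon genes, and PCNA, CDC6, CDT1, GMNN, CDC45L, CDC7, LIG1, FEN1, RNASEH2A and UNG. The choice by symbol used no measured value, though it was made with earlier results of these data known. It found 50 of the 21668 genes in the deposited table. Symbols such as ORC5L and CDC45L are older names of ORC5 and CDC45. The letters of the symbols also bring in MCM3AP, POLDIP2 and POLDIP3, which encode binding partners and not subunits of the helicase or polymerases. GINS2 and RFC1 appear under locus numbers, are not among the 50, and are given beside their complexes.

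Before S phase, the origin recognition complex (ORC) binds DNA and, with CDC6 and CDT1, loads the MCM2 to MCM7 helicase, a step called licensing. Geminin, the product of GMNN, binds CDT1 and blocks a second loading in the same cycle. The kinase CDC7, CDC45 and the GINS complex then turn the loaded helicase into a moving one, and DNA polymerases alpha, delta and epsilon, the PCNA clamp and its RFC loader copy both strands. Cleavage embryos run their first cell cycles on proteins and mRNAs stored by the oocyte until transcription from the embryo's own genome takes over.

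RNA of Bos taurus was sequenced in 18 libraries, 3 for each of 6 stages, with 10 oocytes or embryos pooled for every library. Oocytes of German Simmental cows, freed of cumulus cells, were taken before maturation, at the germinal vesicle (GV) stage, and after maturation in vitro to metaphase II (MII). Embryos with 4, 8 or 16 cells and blastocysts came from in vitro fertilisation of such oocytes with semen of a Zebu bull and are labelled German Simmental x Brahman. Breed and stage therefore change together after the MII oocyte. They cannot be told apart at that step or in blastocysts set against GV oocytes. Nothing in the labels says that the pools of a stage were collected separately, so p-values measure the spread between pools, which may be technical.

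Levels are given as scaled counts, which are the whole reads of a gene, recovered from the deposited values, times a factor that puts the libraries on one scale. They are relative to the other RNAs of a library, and in such pools fewer cells of a type and less RNA per cell cannot be told apart. They are compared within a gene, not between genes of different length. A level written with ± is the mean and standard deviation of the 3 libraries of a stage. A difference is that of the mean deposited values, on a log2-like scale, ± SE from limma. A gene rose or fell where its p, adjusted by Benjamini-Hochberg across all 17138 tested genes, was under 0.05.

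Libraries held 2438473 to 11971840 reads assigned to genes, and 1 read corresponded to 0.602 to 3.02 scaled counts. In 8-cell replicate 2 and 16-cell replicate 1, only 12393 and 11970 genes had reads, against 12903 to 15399 in the other 16 libraries. The 8 oocyte markers summed to 70592 to 99012 in GV oocytes and to 133 to 291 in blastocysts, and the 9 blastocyst markers to 1526 to 1689 and 30492 to 65962. KRT8, KRT18 and PTGS2 made up most of the latter sum in blastocysts. By mean, NANOG was highest at 16 cells (1646, against 179.9 in blastocysts) and TFAP2A at 8 cells (70.4, against 34.2). The 15 cumulus and granulosa markers summed to 3077 to 4189 in GV and 3344 to 4558 in MII oocytes, 740 to 1794 at 16 cells and 523 to 1398 in blastocysts. Of these, FOXL2, TNFAIP6 and LHCGR were at 0 in GV oocytes, and HAS2, VCAN and STAR made up most of the sums up to 8 cells. Others had higher means in blastocysts than in GV oocytes, among them HSD3B1 (443 against 3.75), CYP19A1 (363 against 36.8) and CYP11A1 (124.5 against 7.82). The 6 sperm markers summed to at most 52.7 before the blastocyst and to 82.9 to 1100.2 there, mainly through TNP1. The part of other cell types in the differences between stages was not tested.

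Over the 6 stages, 37 of the 50 replication genes differed (74%, limma F test), against 67% of all genes tested. Among these, POLD4 passed the filter on low values through its blastocyst reads alone and so had to differ; without it the count was 36. Those that did not pass were ORC1L, CDT1, MCM3, MCM6, MCM8, MCM9, GINS3, POLD1, POLDIP2, POLE3, RFC5, RPA1 and RPA2. All 50 passed the filter. PRIM1 had no reads in 1 library and POLD4 none in 15, while the other 48 had reads in all libraries. All genes tested needed only 1 read in 3 libraries, so the shares of all genes given beside the 50 were not matched for level. The genes did not share one course. By mean level, 14 were highest in blastocysts (28%, against 30.4% of all genes tested) and 9 at 4 cells (18%, against 9.93%). A further 9 were highest at 16 cells (18%, against 21.5%), 7 each in GV and MII oocytes (14%, against 12.2% and 11.3%), and 4 at 8 cells (8%, against 14.6%). The lowest mean of 13 genes was at 8 cells (26%, against 14.1%), of 13 in blastocysts (26%, against 20.7%), of 11 at 16 cells (22%, against 18.6%), of 7 in GV oocytes (14%, against 19.1%), and of 3 each in MII oocytes and at 4 cells (6%, against 13.5% and 14%). The 14 highest in blastocysts and the 7 lowest in GV oocytes include POLD4, which was at 0 in every stage but the blastocyst.

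**Figure D1:**
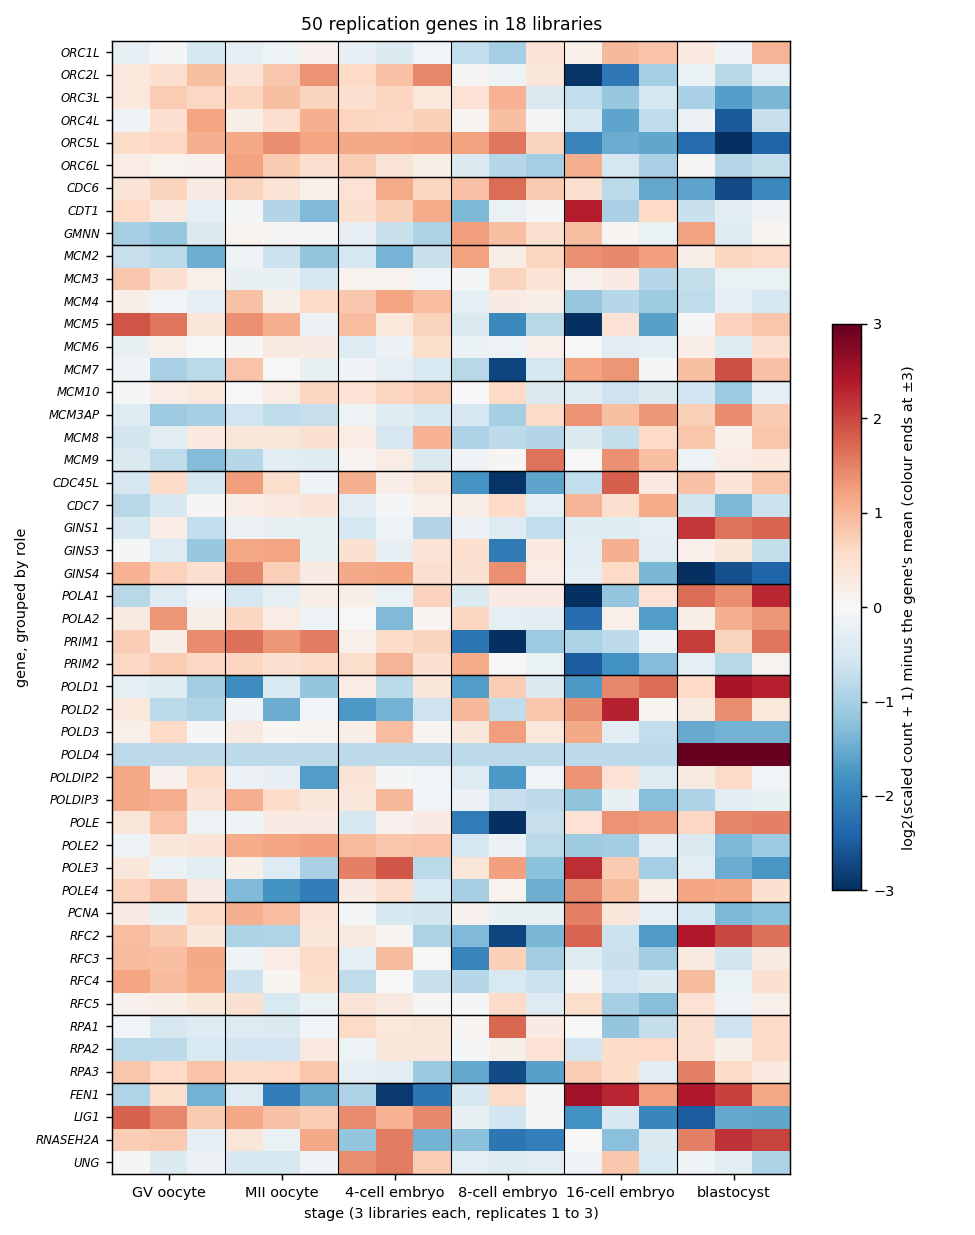
Level of each replication gene (rows, grouped by role, black lines between groups) in the 18 libraries (columns, 3 per stage), as log2 of the scaled count plus 1 minus the mean of that gene over all libraries. Red is above and blue below the gene's own mean; POLD4 is at 0 reads in all but the 3 blastocyst libraries, and GINS1 is highest in the same 3.

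Of the 50 genes, 1 or 2 were called at each step up to 4 cells and 11 to 17 at each later step. From GV to MII oocytes, POLE4 fell (2% of the 50, against 0.613% of all genes) and none rose (0%, against 0.0992%). At an unadjusted p under 0.05, 4 were higher and 4 lower, with no share of all genes given at that threshold. Here voom, the count form of limma, called 0 rises and 1 fall, against 49 and 134 of all 17138 genes. From MII oocytes to 4 cells, POLE4 and UNG rose (4%, against 0.0642%) and none fell (0%, against 0.729%). There, 3 were higher and 2 lower at an unadjusted p under 0.05, again without a share of all genes. By voom, 1 rose and 0 fell, against 19 and 131 of all genes. From 4 to 8 cells, 3 rose (6%, against 8.64%) and 8 fell (16%, against 4.13%). From 8 to 16 cells, 9 rose (18%, against 14.8%) and 8 fell (16%, against 16.3%). From 16 cells to the blastocyst, 9 rose (18%, against 18.2%) and 6 fell (12%, against 13.1%). Blastocysts set against GV oocytes, the end against the start, showed 10 rises (20%, against 25.6%) and 13 falls (26%, against 20.4%). With library medians set equal, 1 rose and 9 fell at 8 cells, against 1205 and 1016 of all 17138 genes. In blastocysts against 16 cells, 8 then rose and 8 fell, against 2408 and 2874 of all genes. The rises in blastocysts count POLD4, and without it they were 8 against 16 cells and 9 against GV oocytes. Neighbouring comparisons share a stage.

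Of the 3 later steps, that from 4 to 8 cells had the largest gap between the 50 and all genes in the share of falls. Nearly all of the 50 had reads in every library, whereas all genes tested include many with few reads. Whether genes of like level show the same gap was not tested. In that comparison, 3 lay higher without overlap (6%, against 13%) and 17 lower (34%, against 12.9%), and the median difference was -0.34 for the 50 and 0 for all genes. From GV to MII oocytes, 6 lay higher without overlap (12%, against 7.95%) and 6 lower (12%, against 9.96%). From MII oocytes to 4 cells, 7 lay higher without overlap (14%, against 7.4%) and 6 lower (12%, against 10.4%). From 8 to 16 cells, 10 lay higher without overlap (20%, against 15.4%) and 8 lower (16%, against 16.2%). From 16 cells to the blastocyst, 9 lay higher without overlap (18%, against 21.6%) and 7 lower (14%, against 15.5%). From GV oocytes to blastocysts, 13 lay higher without overlap (26%, against 31.9%) and 18 lower (36%, against 25%). The 9 and the 13 that lay higher in blastocysts include POLD4, which had to lie there by passing the filter through blastocyst reads alone. The median difference of the 50 was 0.17 at 16 cells and 0.05 in blastocysts against 16 cells, where that of all genes was 0 and 0.19. Both medians of the latter comparison turned negative, to -0.31 and -0.17, when library medians were set equal.

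**Figure D2:**
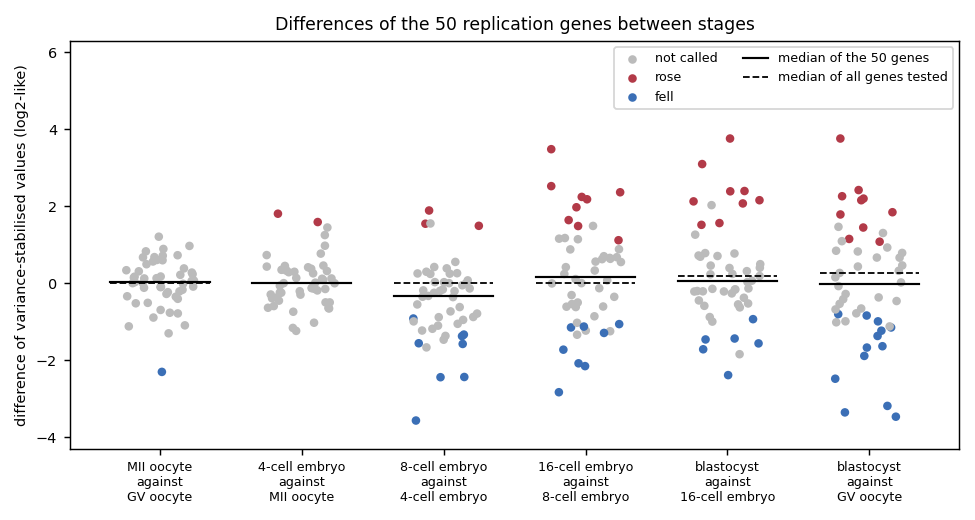
Difference of mean variance-stabilised values (y axis, log2-like) for each of the 50 genes in 6 comparisons (x axis); red genes rose, blue genes fell and grey genes were not called. Solid bars mark the median of the 50 and dashed bars that of all 17138 genes tested; the median of the 50 is -0.34 at 8 cells, and that of all genes is 0.19 and 0.26 in blastocysts against 16 cells and GV oocytes.

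Among the 6 subunits of ORC, ORC5L, ORC3L and ORC4L fell from GV oocytes to blastocysts, where 20.4% of all genes fell. By mean value, 5 of the 6 were lower, as were 44.3% of all genes. ORC5L had 3226, 3409 and 4661 in GV oocytes, 4894, 5779 and 5043 in MII oocytes and 4867, 4947 and 5151 at 4 cells. It was still at 5104, 6689 and 3536 at 8 cells, and dropped to 552, 792 and 747 at 16 cells (difference -2.83 ± 0.29, adjusted p = 1.59e-06). All 3 16-cell libraries lay below every earlier library. Blastocysts had 448, 244 and 419 (difference -0.94 ± 0.29, adjusted p = 0.016), a step that was not called without 16-cell replicate 2 or blastocyst replicate 2 (adjusted p from 0.0551 to 0.0967). ORC3L, another subunit, had 2998, 4511 and 1644 at 8 cells and 1321, 1007 and 1518 at 16 cells (difference -1.15 ± 0.31, adjusted p = 0.00792). The 8-cell libraries were spread widely and did not overlap with the 16-cell ones, and the fall was not called without 8-cell replicate 2 (adjusted p = 0.059). From GV oocytes to blastocysts, ORC3L fell from 3287 ± 510.2 to 893 ± 221 (difference -1.89 ± 0.31, adjusted p = 4.53e-05). ORC4L, an ATP-binding subunit, fell from 1083 ± 479 to 393 ± 251 (difference -1.64 ± 0.49, adjusted p = 0.0087), a call that was lost without GV replicate 3 or blastocyst replicate 2 (adjusted p from 0.0573 to 0.0852; difference -0.95 without blastocyst replicate 2).

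ORC2L was lowest at 16 cells. It had 543, 472 and 676 at 8 cells, 67.4, 118 and 260.3 at 16 cells (difference -2.08 ± 0.42, adjusted p = 7.83e-04) and 456, 296 and 429 in blastocysts (difference 1.56 ± 0.42, adjusted p = 0.00634). Neither neighbouring stage overlapped with the 16-cell libraries. ORC1L, the subunit that in human cells is destroyed and remade in each cycle, rose at that same step, from 639, 532 and 1417 to 1195, 2119 and 1955 (difference 1.12 ± 0.36, adjusted p = 0.0245). Of the 8-cell libraries, replicate 3 lay inside the 16-cell range, ORC1L did not pass the F test (adjusted p = 0.0608), and the rise was not called without 8-cell replicate 1 or 2 or 16-cell replicate 2 or 3 (adjusted p from 0.0725 to 0.12). ORC6L, with means from 328 to 995, was not called in any comparison.

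CDC6, which joins ORC on DNA before the helicase is loaded, fell in both steps after 8 cells, while GMNN rose at 8 cells. CDC6 had 1603, 1931 and 1438 in GV oocytes, 1954, 1619 and 1359 in MII oocytes and 1649.7, 2655 and 1896 at 4 cells. It went from 2259, 3905 and 2098 at 8 cells to 1704, 701 and 419 at 16 cells (difference -1.73 ± 0.41, adjusted p = 0.00321) and 408, 189 and 317 in blastocysts (difference -1.44 ± 0.41, adjusted p = 0.0103). Libraries overlapped at neither step, but the later fall was not called without 16-cell replicate 1 or blastocyst replicate 2 (adjusted p from 0.0712 to 0.0828; difference -0.89 without 16-cell replicate 1). GMNN had 484, 442 and 723 in GV oocytes, 1052, 993 and 952 in MII oocytes and 824, 609 and 512 at 4 cells. It rose to 2327, 1813 and 1367 at 8 cells (difference 1.49 ± 0.38, adjusted p = 0.0111), with 1817, 1037 and 855 at 16 cells and 2239, 747 and 1022 in blastocysts. Every 8-cell library lay above every earlier one, and the rise was not called without 4-cell replicate 3 or 8-cell replicate 1 (adjusted p from 0.0565 to 0.057). Set against GV oocytes, blastocysts were higher (difference 1.15 ± 0.38, adjusted p = 0.0177), a call that was lost without GV replicate 1 or 2 or blastocyst replicate 1 (adjusted p from 0.0562 to 0.139; difference 0.70 without blastocyst replicate 1).

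CDT1, the loading factor that geminin binds, had 100.5, 80.9 and 53.4 in GV oocytes, 63.1, 35.3 and 25.7 in MII oocytes and 92.2, 109 and 144 at 4 cells. It had 25.2, 57.2 and 64.6 at 8 cells, 342, 33.3 and 99.4 at 16 cells and 40.7, 52.8 and 61.2 in blastocysts. The highest of all 18 values was 16-cell replicate 1, while another 16-cell library was below all GV values. CDT1 was not called in any comparison (F test adjusted p = 0.256).

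**Figure D3:**
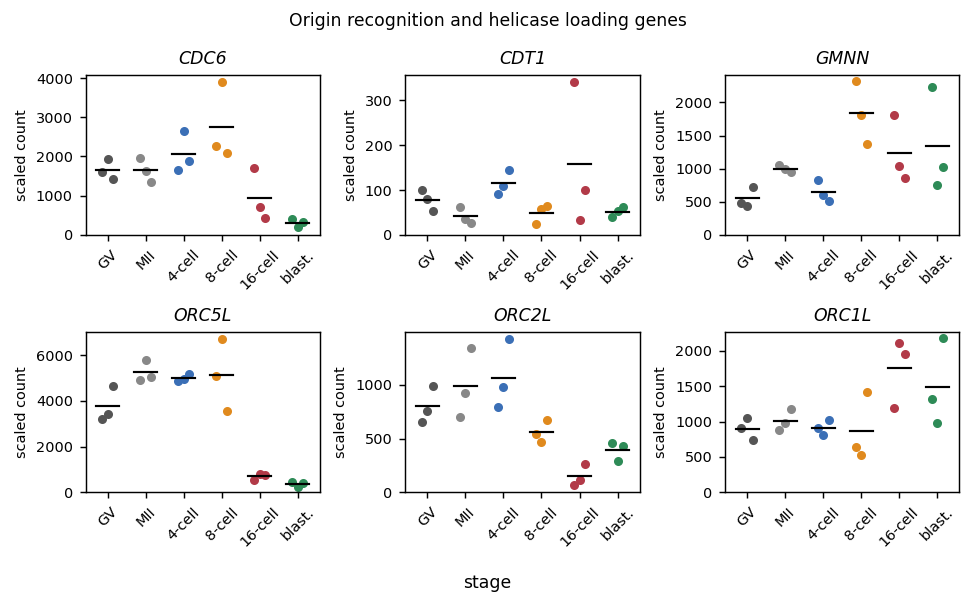
Scaled counts (y axis, from 0 and scaled for each gene) of CDC6, CDT1, GMNN and 3 ORC genes in each library, by stage (x axis, 3 points each); bars are stage means. By mean, ORC5L goes from 5109.6 at 8 cells to 697 at 16 cells, GMNN goes from 648 at 4 cells to 1836 at 8 cells, and 1 of the 16-cell points of CDT1 lies far above the others.

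The 6 MCM genes, whose products form a ring with 1 copy of each subunit, did not move together. From GV oocytes to blastocysts MCM2 and MCM7 rose, MCM3 fell, and MCM4, MCM5 and MCM6 were not called. MCM2 had 688, 644 and 404 in GV oocytes, 1019, 721 and 493 in MII oocytes and 778, 427 and 702 at 4 cells. It rose to 2604, 1281 and 1762 at 8 cells (difference 1.54 ± 0.34, adjusted p = 0.00361), with 2904, 3017 and 2635 at 16 cells and 1259, 1762 and 1658 in blastocysts. Every 8-cell library lay above every earlier one. MCM4 fell at the step where MCM2 rose, from 2022, 2616 and 2202 to 949.6, 1362 and 1325 (difference -0.92 ± 0.28, adjusted p = 0.032), and again to 527, 638 and 550.5 at 16 cells (difference -1.06 ± 0.28, adjusted p = 0.00622). Neither fall left an overlap, though the one at 8 cells was not called without 4-cell replicate 1, 2 or 3 or 8-cell replicate 1 (adjusted p from 0.0588 to 0.135). MCM4 had 1329, 1089 and 949 in GV oocytes, 2115, 1308 and 1718 in MII oocytes and 678, 966 and 794 in blastocysts.

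MCM7 rose at 16 cells, from 334, 87.5 and 412 to 1371, 1496 and 578 (difference 2.18 ± 0.50, adjusted p = 0.00254), with 1111, 2219 and 1097 in blastocysts. Libraries of the 8-cell and 16-cell stages did not overlap. Without 8-cell replicate 2 and 16-cell replicate 1 together, the difference was 1.32 (adjusted p = 0.04996). Earlier values were 554, 303 and 339 in GV oocytes, 1071, 598 and 505 in MII oocytes and 548, 483 and 429 at 4 cells. MCM5 had 736, 609 and 259 in GV oocytes, 522, 429 and 176 in MII oocytes, 381, 248 and 320.2 at 4 cells and 147, 51.5 and 111 at 8 cells. From 4.81, 269 and 63.6 at 16 cells it rose to 192, 324 and 359 in blastocysts (difference 2.39 ± 0.81, adjusted p = 0.0288). The 16-cell replicate 2 lay inside the blastocyst range, 16-cell replicate 1 was lowest, and the rise was not called without 16-cell replicate 1 or blastocyst replicate 2 or 3 (adjusted p from 0.0924 to 0.224; difference 1.07 without 16-cell replicate 1).

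MCM6 had 1535, 1995 and 1776 in GV oocytes, 1839, 2181 and 2126 in MII oocytes and 1385, 1591 and 2606 at 4 cells. It had 1565, 1624 and 2015 at 8 cells, 1829.8, 1415 and 1504 at 16 cells and 2079.6, 1395 and 2572 in blastocysts. Its F test had the highest adjusted p of the 50 genes (0.827). MCM3 had 1648, 1305 and 1056 in GV oocytes, 807, 817 and 666 in MII oocytes and 1017, 1014 and 898 at 4 cells. It had 911, 1509 and 1251 at 8 cells, 1037, 1116 and 519 at 16 cells and 574, 825 and 827 in blastocysts. Blastocysts lay below GV oocytes without overlap (difference -0.84 ± 0.32, adjusted p = 0.0376), but MCM3 did not pass the F test (adjusted p = 0.107) and the fall was not called without GV replicate 1 or 2 or blastocyst replicate 1 (adjusted p from 0.0789 to 0.147).

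**Figure D4:**
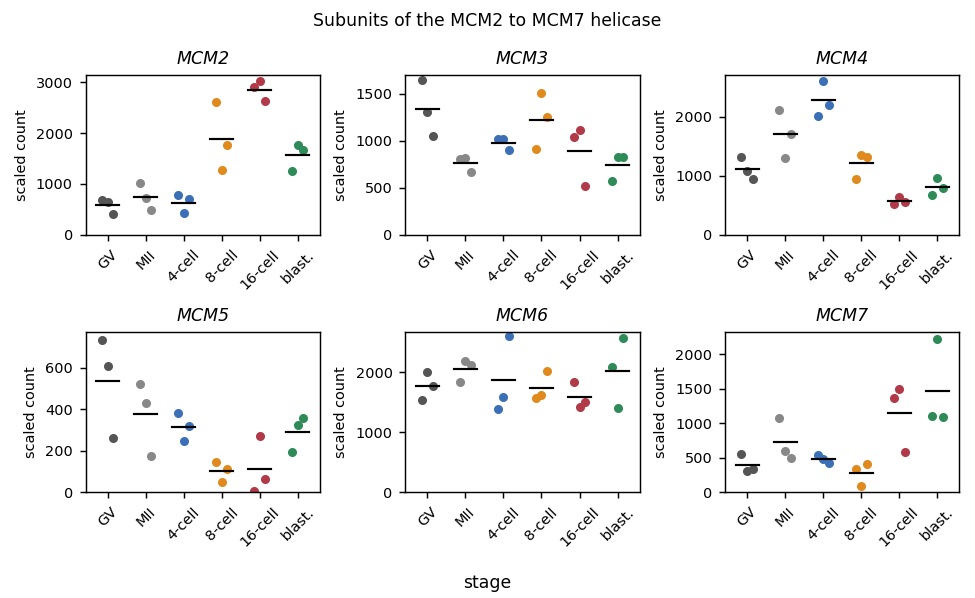
Scaled counts (y axis, from 0 and scaled for each gene) of the 6 subunits of the MCM2 to MCM7 helicase in each library, by stage (x axis, 3 points each); bars are stage means. Between 4 and 8 cells the mean of MCM2 goes from 636 to 1883 and that of MCM4 from 2280.0 to 1212, while the stage means of MCM6 run from 1583 to 2049.

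MCM10, an initiation factor outside the ring, fell from 3009.9 ± 375 in GV oocytes to 1758 ± 479 in blastocysts (difference -0.80 ± 0.28, adjusted p = 0.0244), a call that was lost without GV replicate 2 or 3 or blastocyst replicate 2 (adjusted p from 0.0662 to 0.125). MCM3AP, whose human product also serves mRNA export, rose from 409.9, 291 and 860.0 at 8 cells to 1481, 1079 and 1437 at 16 cells (difference 1.48 ± 0.37, adjusted p = 0.00427). Those stages did not overlap. The rise was not called without 8-cell replicate 2 and 16-cell replicate 1 together (difference 1.06, adjusted p = 0.0546). MCM8 and MCM9, which act together in recombination repair, were not called in any comparison, with stage means from 145 to 413 and from 104 to 329.

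Among the genes that activate the loaded helicase, GINS1 rose in blastocysts while GINS4 and CDC7 fell. GINS1 and GINS4 encode subunits of the GINS complex, which joins MCM and CDC45 in the moving helicase. GINS1 had 575, 497 and 392 at 8 cells, 509, 508 and 541 at 16 cells and 2839, 2023 and 2193 in blastocysts (difference 2.16 ± 0.32, adjusted p = 2.45e-05). Its earlier stage means ran from 469 to 565, and every blastocyst library lay above every earlier one. GINS4 had 764, 602 and 514 in GV oocytes, 301, 562 and 143 at 16 cells and 33.5, 58.6 and 69.4 in blastocysts (difference -2.39 ± 0.47, adjusted p = 5.74e-04). All 3 blastocyst libraries lay below the other 15. GINS3, with stage means from 176 to 429, was not called (F test adjusted p = 0.438). GINS2, listed as LOC100299171, fell from 875 ± 414 at 8 cells to 72.3 ± 70.5 at 16 cells (-4.45 ± 0.76, adjusted p = 2.01e-04). It rose to 472 ± 16.5 in blastocysts (3.66 ± 0.76, adjusted p = 8.77e-04).

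CDC7, the catalytic subunit of a kinase that phosphorylates MCM, fell from 2366, 1636 and 2528 at 16 cells to 799, 454 and 745 in blastocysts (difference -1.72 ± 0.32, adjusted p = 2.97e-04). The libraries did not overlap. CDC45L had its lowest mean at 8 cells. It went from 175, 94.9 and 106 at 4 cells to 23.7, 9.81 and 26.7 at 8 cells (difference -2.44 ± 0.63, adjusted p = 0.0119) and 49.3, 287 and 101 at 16 cells (difference 2.36 ± 0.63, adjusted p = 0.00726). The 8-cell libraries lay below both neighbouring stages. The fall was not called without 4-cell replicate 1 (adjusted p = 0.0681) and the rise was not called without 16-cell replicate 2 (adjusted p = 0.0504).

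All 4 genes of the polymerase alpha and primase complex, which makes the RNA and DNA primers, had higher means in blastocysts than at 16 cells, as did 54.5% of all genes, and 3 of the 4 rose, against 18.2% of all genes. None of the 3 was called in a fit of both stages alone (adjusted p = 0.0892 for POLA1, 0.112 for POLA2 and 0.0619 for PRIM2). POLA1, the catalytic subunit, went from 32.5, 157 and 471 to 1119.7, 925 and 1688 (difference 3.09 ± 0.60, adjusted p = 4.69e-04). Its blastocyst libraries lay above all earlier ones. POLA2, the accessory subunit, went from 37.3, 209 and 57.6 to 214, 391 and 471 (difference 2.07 ± 0.58, adjusted p = 0.00874). There was no overlap, and the rise was not called without 16-cell replicate 1 (adjusted p = 0.0506). PRIM1, the catalytic primase subunit, fell from 187, 243 and 267 at 4 cells to 35.9, 0 and 78.7 at 8 cells (difference -3.57 ± 0.83, adjusted p = 0.00526) and rose to 86.6, 96.7 and 153 at 16 cells (difference 2.52 ± 0.83, adjusted p = 0.0252). The 8-cell libraries lay below both neighbouring stages. Without 8-cell replicate 2, which had no PRIM1 reads, the difference of the fall was -2.02 (adjusted p = 0.00797), and the rise was not called without 8-cell replicate 2 or 16-cell replicate 3 (adjusted p from 0.0784 to 0.17; difference 0.97 without 8-cell replicate 2). Blastocysts had 494 ± 222, against 112 ± 35.8 at 16 cells (adjusted p = 0.0685).

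PRIM2, the large primase subunit, was lowest 1 stage later than PRIM1. It fell from 1181, 552 and 475 at 8 cells to 96.2, 154 and 219 at 16 cells (difference -2.16 ± 0.38, adjusted p = 2.71e-04) and rose to 446, 307 and 589 in blastocysts (difference 1.52 ± 0.38, adjusted p = 0.00416). Neither step left an overlap. Blastocysts lay below GV oocytes (866 ± 47.1, difference -0.99 ± 0.38, adjusted p = 0.0381), a call that was lost without GV replicate 1, 2 or 3 or blastocyst replicate 1 or 2 (adjusted p from 0.0664 to 0.153).

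The subunits of polymerase epsilon, which copies the leading strand, had separate courses. POLE, the catalytic subunit, fell from 195, 298 and 327 at 4 cells to 63.4, 6.54 and 170.0 at 8 cells (difference -2.44 ± 0.66, adjusted p = 0.0158) and rose to 369, 695 and 666 at 16 cells (difference 3.48 ± 0.66, adjusted p = 4.85e-04). The 8-cell libraries, lowest in replicate 2, overlapped with neither neighbouring stage, and the fall was not called without 4-cell replicate 2 or 3 or 8-cell replicate 2 (adjusted p from 0.0573 to 0.0646; difference -1.32 without 8-cell replicate 2). POLE2, a subunit of the core enzyme, fell at 8 cells too, from 1168, 1082 and 1098 to 424, 533 and 343 (difference -1.38 ± 0.32, adjusted p = 0.0059), with 289.9, 293 and 475 at 16 cells and 450.3, 237 and 283 in blastocysts. All 4-cell libraries lay above all later ones. POLE4, a small histone-fold subunit, fell from 1049, 1177 and 767 in GV to 259, 186 and 153 in MII oocytes (difference -2.31 ± 0.42, adjusted p = 0.00796) and rose to 765, 917 and 473 at 4 cells (difference 1.80 ± 0.42, adjusted p = 0.043). MII oocytes lay below both neighbouring stages. The fall was not called without GV replicate 1 or 2 or MII replicate 3 (adjusted p from 0.0535 to 0.0609), and the rise was not called without MII replicate 1, 2 or 3 or 4-cell replicate 1 or 2 (adjusted p from 0.0616 to 0.236). From 322, 695 and 233 at 8 cells, POLE4 rose again to 1755, 1249 and 739 at 16 cells (difference 1.64 ± 0.42, adjusted p = 0.00528). POLE3, its histone-fold partner, had 3191, 4067 and 632 at 4 cells and 5197, 1938 and 552 at 16 cells and was not called in any comparison.

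In polymerase delta, which copies the lagging strand, POLD1, the catalytic subunit, had 31.7 ± 8.47 in GV oocytes and 190.2 ± 104 in blastocysts (difference 2.26 ± 0.83, adjusted p = 0.0302). That rise was not called without GV replicate 1, 2 or 3 or blastocyst replicate 2 or 3 (adjusted p from 0.0525 to 0.115). POLD1 was not called between successive stages and did not pass the F test (adjusted p = 0.0641). POLD2 had 53.7 ± 23 at 4 cells and 354 ± 245 at 16 cells and was called by the F test alone (adjusted p = 0.0206). POLD3, an accessory subunit, fell from 2407, 886 and 659.8 at 16 cells to 384, 414 and 414 in blastocysts (difference -1.46 ± 0.39, adjusted p = 0.00681). The highest 16-cell library was replicate 1, no library overlapped, and the fall was not called without 16-cell replicate 1 (adjusted p = 0.0555; difference -0.91 without 16-cell replicate 1). POLD4, the smallest subunit, had no reads in oocytes or cleavage embryos and 26.4, 46.9 and 14.5 in blastocysts, from 91 reads in all. It passed the filter through these libraries alone, so no test of it is given. Set beside a floor of 3 reads over the 3 16-cell libraries, its blastocyst mean was 16.2-fold higher, which describes the reads and is neither a test nor a lower bound. POLDIP3, a binding partner, fell from 2803 ± 747 in GV oocytes to 1073 ± 256 in blastocysts (difference -1.37 ± 0.35, adjusted p = 0.00327), and POLDIP2 was not called.

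PCNA, the ring that holds polymerases on DNA, had 5936, 4275 and 7276 in GV oocytes, 10404, 9391 and 6629.6 in MII oocytes and 4779, 3543 and 3396 at 4 cells. It had 5398, 4297 and 4245 at 8 cells, 14184, 6327 and 4088 at 16 cells and 3448, 1947 and 2099 in blastocysts. Blastocysts lay below 16-cell embryos (difference -1.57 ± 0.35, adjusted p = 0.00175) and below GV oocytes (difference -1.24 ± 0.35, adjusted p = 0.00684). Neither comparison left an overlap, and the highest 16-cell value was that of replicate 1. How reads shared with close copies of a gene were counted is not given in the sources used here. Of the RFC genes, which encode the clamp loader, RFC2 rose from 226, 42.3 and 19.9 at 16 cells to 357, 271 and 214 in blastocysts (difference 2.12 ± 0.72, adjusted p = 0.0276). The 16-cell replicate 1 lay inside the blastocyst range, and the rise was not called without 16-cell replicate 2 or 3 or blastocyst replicate 1 or 2 (adjusted p from 0.0669 to 0.14). RFC3 and RFC4 differed over the stages (F test adjusted p = 0.026 and 0.00296), with their highest means in GV oocytes (1669 ± 149 and 1151 ± 92.9), but were not called in any comparison. RFC5 did not pass. RFC1, the large subunit, listed as LOC514842, fell from 1440.0 ± 241 at 16 cells to 820.3 ± 229 in blastocysts (-0.84 ± 0.29, adjusted p = 0.0302).

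Of the subunits of RPA, which coats single-stranded DNA, only RPA3 passed the F test (adjusted p = 0.0561 for RPA1 and 0.206 for RPA2). RPA3, the smallest, fell from 480.0, 466 and 274 at 4 cells to 204, 91.6 and 193 at 8 cells (difference -1.34 ± 0.39, adjusted p = 0.0274) and rose to 988, 865 and 479 at 16 cells (difference 2.24 ± 0.39, adjusted p = 2.63e-04). Its 8-cell libraries lay below the other 15, and the fall was not called without 4-cell replicate 1 or 2 or 8-cell replicate 2 (adjusted p from 0.106 to 0.117). RPA1, the largest, fell at the step where RPA3 rose, from 878, 2781 and 989 to 843, 375 and 511 (difference -1.29 ± 0.41, adjusted p = 0.0209). The libraries did not overlap, replicate 2 being highest at 8 cells, and the fall was not called without 8-cell replicate 2 or 16-cell replicate 2 or 3 (adjusted p from 0.0526 to 0.153; difference -0.77 without 8-cell replicate 2). RPA2 rose from 119 ± 17.5 in GV oocytes to 256 ± 36.1 in blastocysts (difference 1.08 ± 0.43, adjusted p = 0.0435), a call that was lost without GV replicate 1, 2 or 3 or blastocyst replicate 1 or 3 (adjusted p from 0.0561 to 0.104).

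Of the genes that finish the lagging strand, LIG1 fell and FEN1 rose. LIG1, the ligase that joins Okazaki fragments, had 7863, 6203 and 3965 in GV oocytes, 6160.5, 4709 and 6227 at 4 cells and 1958, 1541 and 2229 at 8 cells (difference -1.58 ± 0.36, adjusted p = 0.00462). It had 654, 1645 and 592 at 16 cells (difference -1.13 ± 0.36, adjusted p = 0.0216) and 406, 787 and 779 in blastocysts. The fall at 8 cells left no overlap, whereas at 16 cells replicate 2 lay inside the 8-cell range and that fall was not called without 8-cell replicate 1 or 3 or 16-cell replicate 1 or 3 (adjusted p from 0.0559 to 0.105). From GV oocytes to blastocysts LIG1 fell (difference -3.19 ± 0.36, adjusted p = 4.21e-07). FEN1, the nuclease that trims the fragments, had 70.5, 17.5 and 29.4 at 4 cells, 95.4, 201 and 132 at 8 cells (difference 1.89 ± 0.62, adjusted p = 0.048) and 775, 662 and 322 at 16 cells (difference 1.97 ± 0.62, adjusted p = 0.0192). Neither step left an overlap. The rise at 8 cells was not called without 4-cell replicate 2 or 3 or 8-cell replicate 1, 2 or 3 (adjusted p from 0.0515 to 0.205), and that at 16 cells was not called without 8-cell replicate 1 or 16-cell replicate 1 or 2 (adjusted p from 0.0562 to 0.0719).

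RNASEH2A, the catalytic subunit of an enzyme that removes ribonucleotides from DNA, rose from 95, 39.3 and 71.5 at 16 cells to 275, 432 and 391 in blastocysts (difference 2.39 ± 0.67, adjusted p = 0.00859). The libraries did not overlap. UNG, which cuts uracil out of DNA, had its highest mean at 4 cells. It went from 791, 781 and 1025 in MII oocytes to 2871, 3257 and 1859.7 at 4 cells (difference 1.59 ± 0.33, adjusted p = 0.0196) and 913, 849 and 863 at 8 cells (difference -1.56 ± 0.33, adjusted p = 0.00252). The 4-cell libraries lay above both neighbouring stages, and the rise was not called without MII replicate 1, 2 or 3 or 4-cell replicate 1 or 2 (adjusted p from 0.0516 to 0.127).

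**Figure D5:**
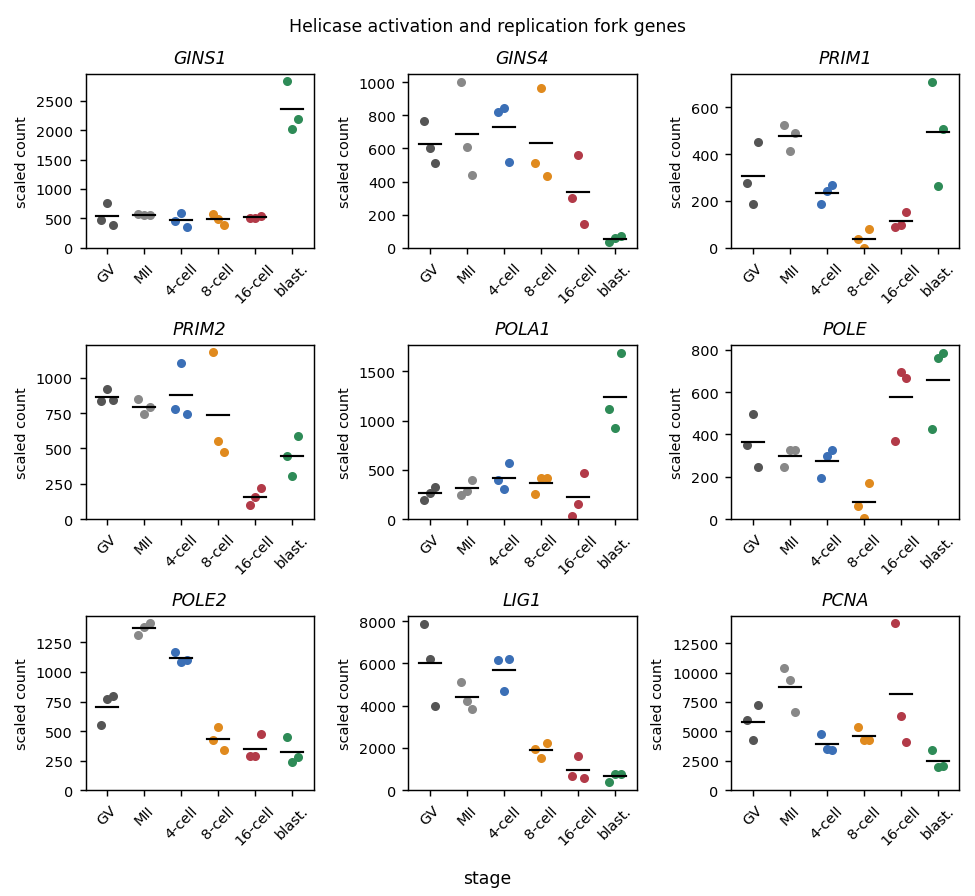
Scaled counts (y axis, from 0 and scaled for each gene) of 9 helicase activation and replication fork genes in each library, by stage (x axis, 3 points each); bars are stage means. By mean, GINS1 goes from 519 at 16 cells to 2352 in blastocysts and GINS4 from 335 to 53.9; POLE and PRIM1 are lowest at 8 cells and PRIM2 at 16 cells.

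Leaving out POLD4, there were 67 called differences in the 6 comparisons. Of these, 38 were called whichever library of their stages was left out, and none reversed. Fitting each pair of stages by itself, with 6 libraries to estimate the spread, called 28 of them. At 8 cells these were GMNN (adjusted p = 0.0485), POLE2 (0.024), LIG1 (0.0225) and UNG (0.0303), and at 16 cells ORC5L (0.0269). In blastocysts against 16 cells they were CDC7 (adjusted p = 0.0224), GINS1 (0.00589) and RNASEH2A (0.02), and the others were in blastocysts against GV oocytes. Equal library medians ended the calls of POLE4 in MII oocytes, POLE4 at 4 cells, GMNN and FEN1 at 8 cells, ORC1L at 16 cells, RFC2 in blastocysts against 16 cells, and GMNN and RPA2 in blastocysts against GV oocytes (adjusted p from 0.0556 to 0.166). Testing without the filter ended the calls of POLE4 at 4 cells, POLE and FEN1 at 8 cells, PRIM1 and LIG1 at 16 cells, and MCM5 in blastocysts against 16 cells (adjusted p from 0.0509 to 0.108). voom ended the calls of POLE4 at 4 cells, RPA3 and FEN1 at 8 cells, RPA1 at 16 cells, ORC5L in blastocysts against 16 cells, and RPA2 in blastocysts against GV oocytes (adjusted p from 0.0556 to 0.162). Array weights ended the calls of FEN1 at 8 cells, MCM4, PRIM1, RPA1, FEN1 and LIG1 at 16 cells, and MCM5 in blastocysts against 16 cells (adjusted p from 0.0734 to 0.158).

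A list of 71 further genes of initiation, fork protection, chromatin assembly, nucleotide supply and E2F control was read in the same fits. From GV to MII oocytes 0 rose (0%, against 0.0992% of all genes) and 0 fell (0%, against 0.613%) in limma. At an unadjusted p under 0.05, for which no share of all genes is given, 7 were higher and 4 lower. By voom, 3 rose and 0 fell, against 49 and 134 of all genes. From MII oocytes to 4 cells, 0 rose (0%, against 0.0642% of all genes) and 3 fell (4.23%, against 0.729%). From 4 to 8 cells, 4 rose (5.63%, against 8.64% of all genes) and 7 fell (9.86%, against 4.13%). From 8 to 16 cells, 17 rose (23.9%, against 14.8% of all genes) and 12 fell (16.9%, against 16.3%). From 16 cells to the blastocyst, 12 rose (16.9%, against 18.2% of all genes) and 17 fell (23.9%, against 13.1%). With equal library medians these last counts were 8 rises and 19 falls, against 2408 and 2874 of all genes. With array weights those at 16 cells were 12 rises and 10 falls, against 1509 and 2010 of all genes. In fits of both stages alone, rises and falls numbered 0 and 0 at 4 cells, 2 and 1 at 8 cells, 5 and 4 at 16 cells and 8 and 8 in blastocysts. No share of all genes is given for those fits. With all 18 libraries fitted, blastocysts against GV oocytes showed 19 rises (26.8%, against 25.6% of all genes) and 19 falls (26.8%, against 20.4%). No gene of the list is named for that comparison. HUS1, part of a checkpoint clamp, fell at 4 cells from 224 ± 56.2 to 32.9 ± 31.4 (-3.01 ± 0.61, adjusted p = 0.0145). RBL2, a relative of RB1, fell there from 385 ± 38.1 to 68.7 ± 53.4 (-2.64 ± 0.62, adjusted p = 0.0449), and RRM1, the large subunit of ribonucleotide reductase, from 2099 ± 323 to 686 ± 165 (-1.62 ± 0.36, adjusted p = 0.0342). HUS1 was not called without MII replicate 1, 2 or 3 or 4-cell replicate 2 or 3 (adjusted p from 0.0503 to 0.111). RBL2 was not called without MII replicate 1, 2 or 3 or 4-cell replicate 1 or 2 (adjusted p from 0.126 to 0.251), and RRM1 was not called without MII replicate 1, 2 or 3 or 4-cell replicate 1, 2 or 3 (adjusted p from 0.0569 to 0.184). With equal library medians or no filter, RBL2 (adjusted p = 0.0844 and 0.12) and RRM1 (0.0973 and 0.0791) were not called. The cyclin E genes, whose products drive entry into S phase, rose at 8 cells, CCNE2 from 14.3 ± 14.7 to 626 ± 264 (5.37 ± 0.79, adjusted p = 6.21e-05) and CCNE1 from 159.8 ± 49.6 to 1238 ± 253 (2.95 ± 0.47, adjusted p = 1.58e-04). RNASEH2C and RNASEH2B, the partners of RNASEH2A, parted there, the former going from 31.6 ± 18.7 to 193 ± 126 (2.29 ± 0.57, adjusted p = 0.0089) and the latter from 70.9 ± 40.2 to 9.12 ± 4.62 (-2.43 ± 0.65, adjusted p = 0.0143). RNASEH2C was not called without 4-cell replicate 2 or 8-cell replicate 3 (adjusted p from 0.0506 to 0.0635), and RNASEH2B was not called without 4-cell replicate 1 (adjusted p = 0.0925). In voom neither was called (adjusted p = 0.0519 and 0.0654). E2F6, a repressor of the E2F family, fell from 28.9 ± 16.1 to 3.57 ± 2.54 (-2.18 ± 0.64, adjusted p = 0.0279), and DDB1, part of the ligase that marks CDT1 for destruction, from 1120.0 ± 481 to 314 ± 162 (-1.87 ± 0.42, adjusted p = 0.00436). The fall of E2F6 was not called without 4-cell replicate 3 or 8-cell replicate 1 (adjusted p from 0.102 to 0.137).

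At 16 cells E2F6 rose from 3.57 ± 2.54 to 204 ± 75.9 (4.86 ± 0.64, adjusted p = 1.99e-05) and RNASEH2B from 9.12 ± 4.62 to 209 ± 109.9 (3.92 ± 0.65, adjusted p = 1.47e-04). PCLAF, which binds PCNA and is listed as PAF, rose too (adjusted p = 8.65e-04), from a mean under 1 scaled count at 8 cells. TOP2B, a topoisomerase, fell from 12230.0 ± 3275 to 1341 ± 521 (-3.24 ± 0.30, adjusted p = 8.31e-07), and UHRF1, which binds newly copied DNA, from 2575 ± 623 to 308 ± 136 (-3.12 ± 0.37, adjusted p = 7.82e-06). E2F2 fell to 0 reads at 16 cells (adjusted p = 0.00249). In blastocysts TFDP1, a partner of E2F proteins, rose from 13.1 ± 22.7 to 198 ± 17.3 (5.04 ± 0.99, adjusted p = 5.28e-04). The 16-cell level of TFDP1 was low and uneven, with a standard deviation above the mean, which limits the size of that difference. SAMHD1, which breaks down deoxynucleotides, rose from 104 ± 71.8 to 1620.0 ± 642 (4.10 ± 0.79, adjusted p = 4.72e-04), and DUT, which breaks down dUTP, from 29.7 ± 10.2 to 455 ± 206 (3.69 ± 0.43, adjusted p = 1.72e-06). RB1, which restrains E2F, fell from 310.3 ± 215 to 36.1 ± 30.6 (-3.25 ± 0.64, adjusted p = 5.30e-04), E2F1 from 337 ± 273 to 37.6 ± 5.64 (-2.74 ± 0.49, adjusted p = 2.24e-04) and UHRF1 again from 308 ± 136 to 47.2 ± 10.8 (-2.52 ± 0.37, adjusted p = 2.56e-05), a fall not called in voom (adjusted p = 0.0542).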

How the data were processed

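RNA of pooled bovine oocytes and embryos was amplified from mixed random and poly(A) priming and sequenced, per the labels' protocols, which do not describe a strand-preserving kit. CASAVA 1.6, TopHat2 2.0.3, HTSeq, DESeq and the build UMD3.1 are named in the submitters' processing notes, and the treatment of multi-mapping reads is not given in the sources used here. The authors deposited 1 table of variance-stabilised expression values on a log2-like scale, 1 column per library. The transformation was inverted: 390024 of 390024 values gave whole reads within 1e-08, with library factors equal to median-of-ratios factors within 7.3e-15. These reads times those factors are the scaled counts printed.

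The filter on low values asked for a minimum of 1 read in 3 or more libraries and left 17138 genes. limma 3.58.1 in R 4.3.3 was fitted to the deposited values of all 18 libraries with stage as the only term, a mean-variance trend and two-sided moderated tests, with Benjamini-Hochberg adjustment over all genes tested. The procedure was tested on simulated data. Reads per library, 2438473 to 11971840, limit the precision of genes with few reads, and reads amplified without molecular identifiers are not independent molecules. Replicate libraries differed by at least 29.44 in chi-square per gene, so none was counted as a duplicate. Tables and figures were made with Python 3.11.15, pandas 2.3.3, numpy 2.4.6 and matplotlib 3.10.9.

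The genes, lists and tests were chosen with earlier results of these data known. Library values are given for MCM2 to MCM7, CDC6, CDT1, GMNN and PCNA and for called genes with the largest differences, and the other genes are given in brief. The further replication genes named are those with the 3 largest called differences in each direction, between successive stages only. Same-numbered pools of blastocysts and 16-cell embryos deviated together, with correlations of at least 0.108 in every pair, while every other comparison had a pair at or under 0.1. At 8 cells, at 16 cells and in blastocysts, each pool correlated best with the same-numbered pool of the stage before, with correlations from 0.017 to 0.134. In MII oocytes and at 4 cells, replicate 2 did not. Set against GV oocytes, blastocyst replicates 1 and 2 did not either. The labels do not say that a number marks a shared origin. The alternatives were equal library medians, no filter, voom, log2 of the scaled count plus 1, array weights, a replicate block, both compared stages alone, and each library left out. Promoter motifs were not analysed here. Gene names follow the table, and older names were matched through RefSeq (ARS-UCD2.0).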

Additional observations from a re-analysis of the deposited data

How the results depend on the processing

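Of 69 called differences, 24 were called under every alternative and none reversed; 2 of the 24 are those of POLD4, which shows nothing, and without it 22 of 67 were. The replicate block and log2 of the scaled count plus 1 kept 69 of the 69, voom 63, no filter 63, array weights 62, equal library medians 61, and fits of both compared stages alone 30; the cause was not tested. The block, which pairs same-numbered pools, called 10 rises and 8 falls in blastocysts against 16 cells, against 3228 and 2402 of all genes. It changed no call of the 69. Leaving out 8-cell replicate 2 and 16-cell replicate 1 together, chosen after seeing the data, kept 34 of 43. The calls lost were RPA3 and FEN1 at 8 cells, and ORC3L, MCM3AP, PRIM1, FEN1 and LIG1 at 16 cells. CDC6 and MCM5 in blastocysts against 16 cells were lost too (adjusted p for all of these from 0.0509 to 0.179). With library medians set equal, the counts became 0 falls in MII oocytes, 1 rise at 4 cells and 1 rise at 8 cells. Over all genes they were then 58, 12 and 1205. No filter and voom each gave 1 rise at 4 cells, against 12 and 19 over all genes. Array weights gave 1 rise and 2 falls in MII oocytes, 2 falls at 4 cells and 5 falls at 16 cells. Over all genes these were 255, 593, 731 and 2010. Both stages alone gave 0 falls in MII oocytes, 0 rises at 4 cells, 1 rise and 3 falls at 8 cells, 0 rises and 1 fall at 16 cells, and 4 rises and 2 falls in blastocysts against 16 cells. Leaving out each library in turn gave 0 to 1 fall in MII oocytes, 0 to 2 rises at 4 cells, 1 to 3 rises and 5 to 8 falls at 8 cells, 7 to 10 rises and 6 to 10 falls at 16 cells, 7 to 8 rises and 4 to 7 falls in blastocysts against 16 cells, 7 to 9 rises and 10 to 13 falls against GV oocytes, and 35 to 41 genes in the F test. Equal medians moved the median difference of all genes to 0.32 in MII oocytes, 0.12 at 4 cells, -0.24 at 8 cells, -0.12 at 16 cells, -0.17 in blastocysts against 16 cells and -0.02 against GV oocytes, with those of the 50 at 0.36, 0.12, -0.58, 0.05, -0.31 and -0.31. The rises counted here in blastocysts include POLD4. No counts over all genes are given here for fits of both stages alone or with a library left out. Depth limits POLD4, which rests on 91 reads.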
